A study of Mus musculus with 3 samples.

Results

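The neuropeptide genes Npy, Sst, Gal, Tac1 and Penk, 5 of the 32285 genes in the count tables, were followed through the single-cell transcriptomes of the embryonic mouse soft palate. They were chosen by name, with their UMI counts (unique molecular identifiers, 1 per captured transcript) in mesenchymal, epithelial and nerve cells already known, so their levels are a description and carry no test. The tissue was the soft palate of E14.5 embryos of the C57BL/6 strain, cut out as the rear portion of the palate and dissociated with TrypLE. Of the 3 libraries, 2 were labelled control, and 1 was labelled Osr2-Cre;Alk5fl/fl and is called the mutant. Alk5 is the older symbol of Tgfbr1, the type I TGF-β receptor. The study gives its controls as Tgfbr1fl/fl or Tgfbr1fl/+ littermates, so floxed alleles were shared by all groups, and the Cre driver acts in the palatal mesenchyme and not in muscle-forming cells. No source used here gives its activity in epithelial or nerve cells, or the number of embryos pooled in a library. The comparison of the genotypes addressed how loss of this receptor in the palatal mesenchyme changes the cells of the soft palate.

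Neuropeptides are short signals cut from larger precursor proteins. Convertases such as furin and the Pcsk enzymes cleave the precursor, carboxypeptidase E (Cpe) trims the ends, and Pam amidates many of the products, which act on G protein-coupled receptors of nearby cells. Npy encodes neuropeptide Y, the cotransmitter of sympathetic neurons, Sst encodes somatostatin, a broad inhibitor of secretion, and Gal encodes galanin. Tac1 encodes substance P and neurokinin A, which sensory fibres release, and Penk encodes the precursor of the enkephalins, ligands of opioid receptors that are also known from embryonic mesenchyme. Sympathetic, parasympathetic and sensory neurons of the head use different sets of these peptides.

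All 5 are protein-coding genes. In the GRCm38 build, Npy lies on chromosome 6 from 49822710 to 49829507 on the plus strand, and Tac1 on the same chromosome from 7554879 to 7565834, also on the plus strand. Sst lies on chromosome 16 from 23889573 to 23890958, Gal on chromosome 19 from 3409915 to 3414544 and Penk on chromosome 4 from 4133531 to 4138819, all on the minus strand. Promoter sequence was found for 4 of the 5 in RefSeq (GRCm38.p6), and Penk was not among them. The 100 bases before each RefSeq start are shown because Sst and Tac1 were found in the same cells of 1 library. Capitals mark the cAMP response element, TGACGTCA, a palindrome that reads alike on both strands and is best known from the Sst promoter. The stretches are chr16:23890845-23890944 for Sst (minus strand), chr6:7554961-7555060 for Tac1 (plus strand), chr6:49822610-49822709 for Npy (plus strand) and chr19:3414545-3414644 for Gal (minus strand). The Sst and Tac1 stretches lie within the longer gene span of the GENCODE annotation.
Sst: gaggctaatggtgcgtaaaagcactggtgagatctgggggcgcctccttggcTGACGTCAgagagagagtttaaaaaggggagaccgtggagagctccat
Tac1: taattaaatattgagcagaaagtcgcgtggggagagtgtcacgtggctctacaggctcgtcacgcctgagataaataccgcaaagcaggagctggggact
Npy: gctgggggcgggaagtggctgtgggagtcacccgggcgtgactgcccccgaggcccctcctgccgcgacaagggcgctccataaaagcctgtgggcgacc
Gal: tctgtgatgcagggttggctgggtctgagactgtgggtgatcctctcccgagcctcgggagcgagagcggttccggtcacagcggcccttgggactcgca

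The palindrome was present in the Sst stretch, beginning 48 bases before the start, and in none of the other 3 stretches. Of the same stretch of all 32851 promoters in the RefSeq table, 1.15% held it. The letters TATAAA, searched on both strands, were in none of the 4 stretches, against 5.56% of all. These matches are descriptions of the letters, not of binding.

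The deposited tables held 2816 barcodes for control 1, 4067 for control 2 and 8690 for the mutant, with 22624711, 27814907 and 63505144 UMIs. After filtering, 2069, 3697 and 7547 cells remained, with a median of 8203, 5218 and 5038 UMIs. Cells were assigned to a class by marker genes, which gave 1209, 2356 and 4391 mesenchymal, 173, 210 and 301 epithelial, 18, 13 and 303 neuronal and 10, 28 and 125 glial cells in control 1, control 2 and the mutant. Barcodes that carried markers of 2 classes (353, 365 and 806) were kept apart as mixed. The libraries stood apart in other ways: 68 granulocytes were found in control 1 and none in the other two, and the mutant held the most neuronal cells in number and share. Libraries shared 18 to 49 barcode sequences, of which 11 to 37 belonged to kept cells in both. Tgfbr1 itself stood at 52.9 CPM (UMIs of the gene per 1000000 UMIs of the class) in the mesenchymal cells of control 1, 59.8 CPM in control 2 and 49.3 CPM in the mutant. Tags from the 3′ end of a transcript do not show whether a floxed exon upstream was removed, so this does not check the label.

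Levels are given as CPM from the pooled UMIs of a class, with exact 95% Poisson intervals, and shares of cells with a UMI carry exact Clopper-Pearson intervals. Neither covers more than counting error. The mutant was a single library, so no difference between genotypes could be tested. A log2 ratio was therefore set beside the gap between the controls, where the ratio is the log2 CPM in the mutant less the average log2 CPM in the controls. By a rule of size, a gene stood out where the ratio was at least 1 in either direction and larger than the gap. In mesenchymal cells 2.28% of the 10363 genes with a mean of at least 5 CPM passed, 1.47% lower and 0.811% higher in the mutant. In epithelial cells 5.6% of 10367 passed, 5.08% lower and 0.521% higher. The lower genes made up 64.4% of the mesenchymal and 90.7% of the epithelial genes past the rule, and 45% and 80.4% with TMM factors. None of the members passed in either class: Npy, Sst, Tac1, Penk and Gal were tested in mesenchymal cells, and Gal and Penk in epithelial cells. The members were chosen with these values known, so nothing is read from that count. In these bulk sums over a class, fewer cells that make a peptide and less RNA per cell cannot be told apart.

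**Figure D1:**
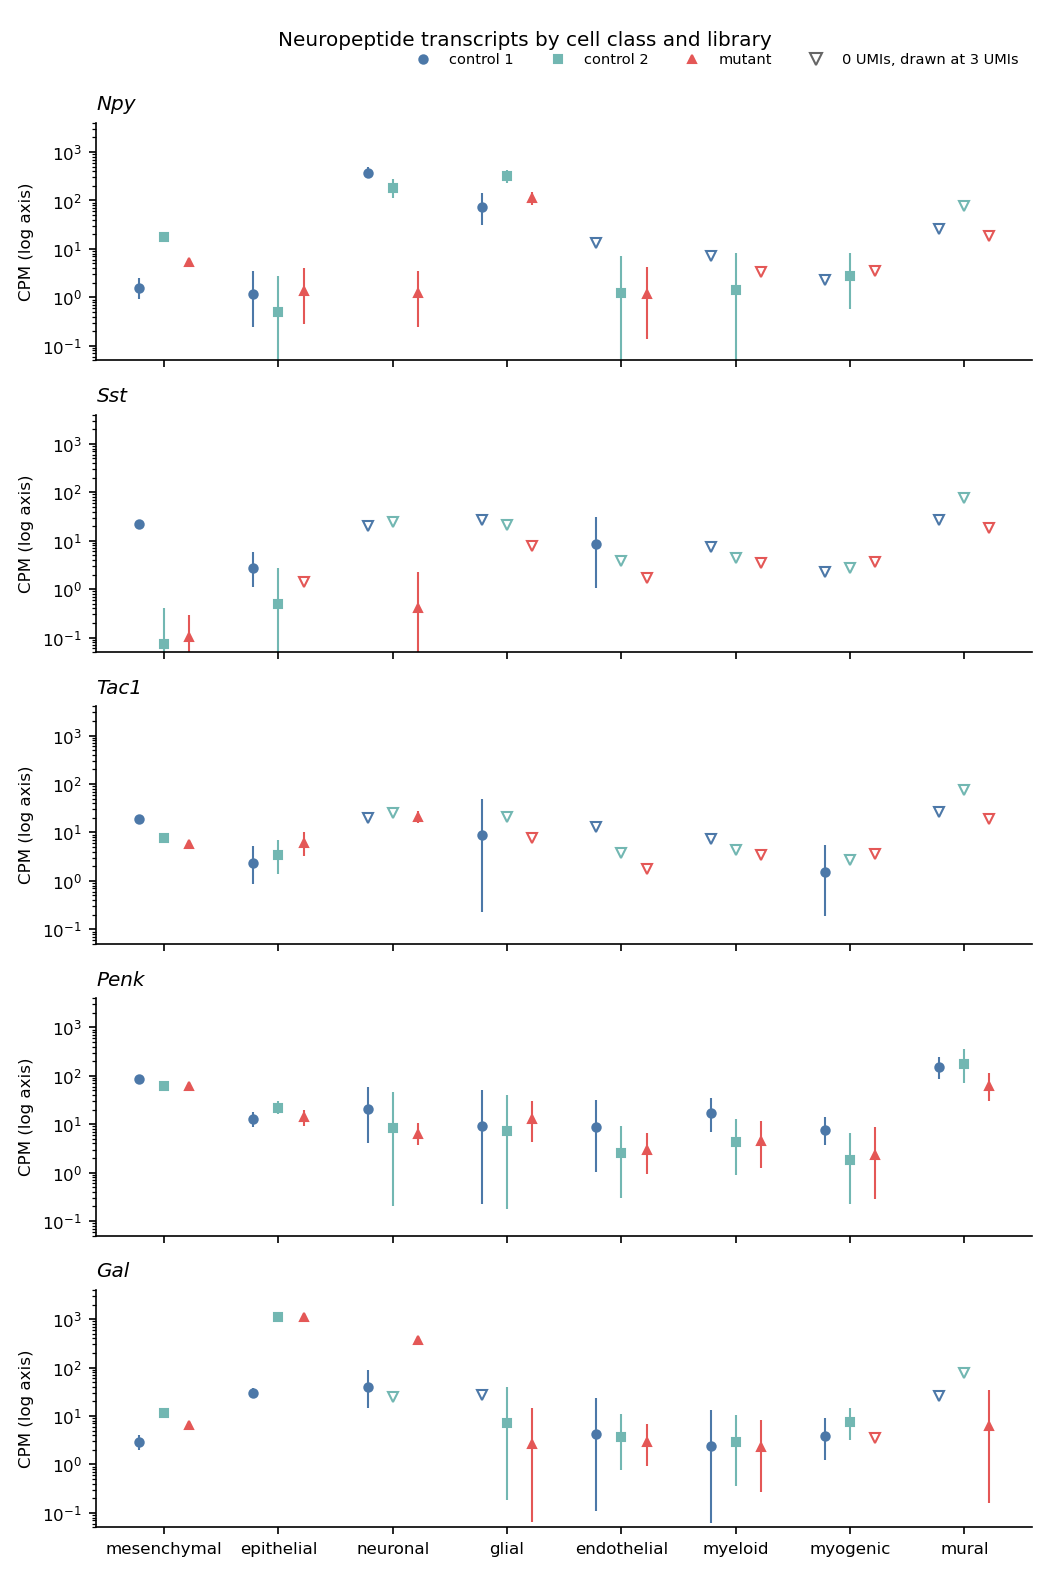
CPM (log axis) of the 5 genes in 8 cell classes, 1 point per library with its exact 95% Poisson interval, and an open triangle at the CPM of 3 UMIs where a library had none. Mesenchymal Sst was high in control 1 alone (22.5 CPM), epithelial Gal was low in control 1 (29.9 CPM) beside control 2 and the mutant, and neuronal Npy was high in the controls where neuronal Gal was high in the mutant.

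Sst was the clearest case of a peptide present in 1 library. Over all kept cells, control 1 had 321 Sst UMIs, control 2 had 2 and the mutant had 4. In mesenchymal cells the counts were 243, 1 and 3 UMIs, which corresponds to 22.5 CPM (19.8 to 25.6), 0.0722 CPM (0.00183 to 0.402) and 0.101 CPM (0.0209 to 0.296). The 243 UMIs lay in 61 of the 1209 mesenchymal cells of control 1, or 5.05% (3.88 to 6.43), while 1 cell of control 2 and 1 of the mutant carried any. With every cell reduced at random to 2000 UMIs (thinning), control 1 had a share of 2.27%, control 2 of 0 and the mutant of 0.0239%.

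The controls differed by more than the distance of the mutant from their mean. The CPM of the mutant was 0.00449 times that of control 1, with a counting interval of 0.00092 to 0.0133, and that of control 2 was 0.0032 times that of control 1 (8.08e-05 to 0.018). With counts under 3 set to 3 UMIs, the log2 ratio was -4.45 and the gap between the controls, control 2 minus control 1, was -6.70. Against control 2 alone no ratio was formed, because both libraries were at or under 3 UMIs. No Sst UMI was found in the myeloid, glial, mural or myogenic cells of any library. In the 42 myeloid cells of control 1, 3 UMIs would have been 7.26 CPM. Other classes of control 1 did carry Sst, among them 7 of its 173 epithelial cells. Epithelial cells held 2.18% of all its Sst UMIs and mixed barcodes 20.6%. Endothelial cells held 0.623%, and granulocytes and erythroid cells 0.312% each.

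Sst transcripts were concentrated in few cells. Of the 61 mesenchymal cells of control 1 with a UMI, 31 had a single one and 15 had at least 5, and the 5 richest cells held 37.4% of the UMIs with up to 23 in a cell. By the rule for naming genes, 5 genes had the largest log2 ratio of CPM in Sst-carrying cells over the other mesenchymal cells: Tac1 (2.76), Msx1 (2.56), 3110099E03Rik (2.53), Lef1 (2.45) and Mpped2 (1.75), with 1 library to rank them in. Msx1 is a homeobox factor of craniofacial mesenchyme, Lef1 a nuclear effector of Wnt signalling and Mpped2 a metallophosphoesterase. Msx1 stood at 287 CPM in the cells with Sst and 48.6 CPM in those without, and Lef1 at 107 and 19.5 CPM. Median depth was 7145 UMIs with and 7831 without Sst.

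These genes were then used, after their values had been seen, to look for cells with this combination in the other libraries. Mesenchymal cells in which Msx1, Lef1 and Mpped2 were all detected came to 68 for control 1, to 5 for control 2 and to 29 for the mutant. Their median depth was 7869.5 UMIs, 12854 UMIs and 22584 UMIs, against 7783, 4978 and 5014.5 UMIs in the other mesenchymal cells, so outside control 1 they were deep cells. The part of depth in this split was not tested. In control 1, 22 of the 68 carried Sst, which the choice of these genes on the same cells had fixed. No Sst UMI was found in the 29 mutant cells, where the interval reached up to 5.59 CPM, or in the 5 cells of control 2, where it reached 47.9 CPM. Within the mesenchymal sub-groups of control 1, Sst stood at 53.2 CPM in cells of no sub-group, 22.6 CPM in osteogenic, 11.4 CPM in midline and 9.25 CPM in perimysial cells. Hand2, a factor of ventral pharyngeal arch mesenchyme, was also high in the mesenchymal cells of control 1, at 9.74 CPM against 0.938 and 0.101 CPM in control 2 and the mutant. Its part in the Sst level was not tested. Gata3 in epithelial cells likewise stood at 41.1 CPM in control 1 against 1.97 and 0.461 CPM. The labels do not say whether the same region was cut out for both controls, so a difference in dissection and a difference between embryos cannot be told apart in the gaps between them.

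Tac1 was found in the mesenchyme of every library, and more of it in control 1. Mesenchymal cells held 205, 106 and 169 UMIs, or 19.0 CPM (16.5 to 21.8) in control 1, 7.65 CPM (6.26 to 9.25) in control 2 and 5.70 CPM (4.87 to 6.63) in the mutant. The share of cells with a UMI was 7.03%, 2.50% and 2.41%, and 2.85%, 1.21% and 0.906% after thinning. The mutant was lowest, with a log2 ratio of -1.08 beside a gap of -1.31. Against control 2 alone the log2 ratio was -0.42. By counts alone, the mutant had 0.745 times the CPM of control 2 (0.581 to 0.959) and 0.30 times that of control 1 (0.243 to 0.369).

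Tac1 and Sst met in the same cells of control 1. Of the 61 mesenchymal cells with Sst, 20 also held Tac1, or 32.8%, against 5.66% of the mesenchymal cells without Sst. Where Msx1, Lef1 and Mpped2 were detected, genes picked from the cells with Sst, 29 of 68 cells of control 1 carried Tac1, at 121 CPM, and the rest of its mesenchyme stood at 10.7 CPM. Outside these cells the libraries stood at 10.7, 7.69 and 5.59 CPM. Tac1 ranked first in the Sst cells of control 1 from which the genes of this split were picked. The choice of genes therefore lowered control 1 here, and nothing is read from the closer levels. In the mutant, 2 of the 29 such cells carried Tac1, at 10.6 CPM (4.26 to 21.8). Penk, by contrast, was found in 18.0% of the Sst cells and 36.7% of the others.

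Over the whole mesenchymal class, with these cells included, Tac1 was thinly spread. Most Tac1-carrying mesenchymal cells held 1 UMI, 50 of 85, 41 of 59 and 71 of 106, and 14, 5 and 6 cells held at least 5. The genes most raised in Tac1 cells in all 3 libraries were Zfhx3, Pxdn, Egr1, Gm47283 and Zfp451, with smallest log2 ratios of 0.46, 0.40, 0.36, 0.34 and 0.33. Zfhx3, a homeodomain and zinc finger factor, reached 1.21 in control 1 and 0.47 and 0.46 in control 2 and the mutant. Tac1 cells were deeper than the others in every library, with medians of 8135, 6516 and 9272 UMIs against 7756, 4970 and 4997 UMIs.

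Mixed barcodes, which belong to no class, held 18, 35 and 42 Tac1 UMIs, or 7.73%, 22.4% and 14.4% of those of control 1, control 2 and the mutant. Among the assigned classes other than the mesenchyme, Tac1 came mainly from mutant neurons. These neurons held 53 UMIs, 21.2 CPM (15.9 to 27.8), in 28 of 303 cells. The 18 and 13 neuronal cells of the controls held none, where 3 UMIs would have been 20.2 and 24.7 CPM. The zero counts in the controls therefore do not set the libraries apart. Epithelial cells stood at 2.39, 3.44 and 5.99 CPM. No Tac1 UMI was found in myeloid, endothelial or mural cells of any library, where 3 UMIs would have been 3.41 CPM in the 151 mutant myeloid cells. In the mutant the neuronal interval lay above the mesenchymal and epithelial ones, which overlapped each other.

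Npy was carried by mesenchyme, glia and neurons, with levels in a different order in each library. The glial and neuronal intervals of control 2 overlapped, however, and the glial level of control 1 came from 1 cell. In mesenchymal cells 17, 247 and 160 UMIs were counted, or 1.58 CPM (0.918 to 2.52) in control 1, 17.8 CPM (15.7 to 20.2) in control 2 and 5.40 CPM (4.59 to 6.30) in the mutant. The mutant lay between the controls, which differed 11.3-fold (6.92 to 19.7), and the log2 ratio was 0.03 beside a gap of 3.50. The share of cells with a UMI was 1.16%, 2.55% and 1.18%, or 0.336%, 1.61% and 0.740% after thinning. In myeloid cells 0, 1 and 0 UMIs were found. Of the 14 mesenchymal cells of control 1 with Npy, 12 held 1 UMI. In that library 14 of 1209 mesenchymal and 3 of 173 epithelial cells carried it, so mesenchymal Npy was not separated from the epithelial level there.

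Within the mesenchyme of control 2 and the mutant, Npy was highest in the perimysial cells, the connective tissue around the palatal muscles, while in control 1 these cells were not above the rest. Cells with at least 2 of 8 perimysial markers stood at 1.23, 33.1 and 9.93 CPM, and midline cells at 1.14, 3.09 and 1.78 CPM. In control 2, 218 of the 247 mesenchymal UMIs lay in perimysial cells, and in the mutant 146 of 160. This sub-group was broad and held a large part of the mesenchymal UMIs of all genes in both libraries. These counts alone therefore do not place Npy in a small population. Cells that joined the class by perimysial markers alone fall in this sub-group by rule, which adds to its counts. Sub-groups overlap, because a cell can carry markers of several. Osteogenic cells stood at 2.57, 13.2 and 2.98 CPM and dividing cells at 1.17, 8.93 and 5.16 CPM.

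The genes most raised in Npy cells were Hic1, Ebf2, Igfbp3, Phlda1 and Aldh1a2, with smallest log2 ratios over control 2 and the mutant of 1.69, 1.66, 1.31, 1.25 and 1.18. Control 1, with 14 Npy cells, was not used. Hic1, Ebf2 and Aldh1a2, the last a retinoic acid synthesis enzyme, were also among the perimysial markers. Some cells joined the mesenchymal class by these markers alone, so the gate fixed part of this ranking. The ranking was not repeated without such cells. Ebf2 stood at 189 CPM in Npy cells of control 2 against 26.9 CPM in the others, and at 108 against 34.1 CPM in the mutant. Aldh1a2 stood at 123 against 12.0 CPM in control 2 and at 51.4 against 22.7 CPM in the mutant. Median depth was 5576 UMIs in the Npy cells of control 2 and 4968 in its other cells, and 4572 and 5047 UMIs in the mutant.

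A few cells were rich in Npy. In control 2, 15 mesenchymal cells had at least 5 UMIs and the highest had 30, in the mutant 10 cells had at least 5 and the highest 23, and in control 1 none had more than 3. The mesenchymal class included cells known by perimysial markers alone. Without them 16, 135 and 106 Npy UMIs were left of 17, 247 and 160. The levels were then 1.54, 10.4 and 3.75 CPM, in the same order.

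**Figure D2:**
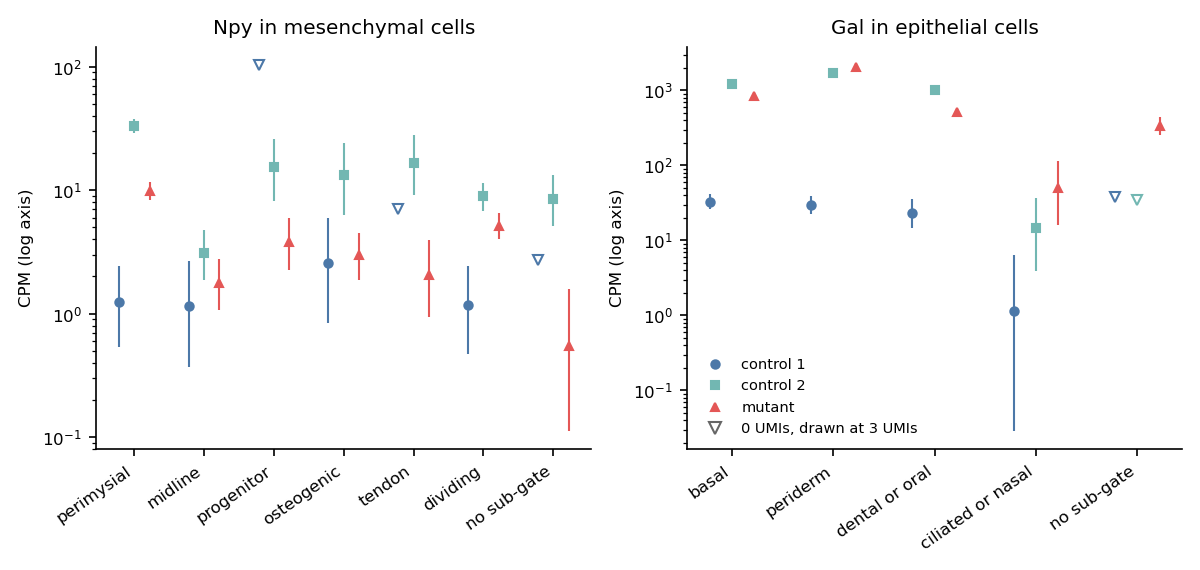
CPM (log axis) of Npy in sub-groups of mesenchymal cells (left) and of Gal in sub-groups of epithelial cells (right), with exact 95% Poisson intervals, an open triangle marking the CPM of 3 UMIs where none was found. Npy was highest in the perimysial cells of control 2 (33.1 CPM), and Gal in the periderm-type cells of the mutant (2065 CPM).

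Glial cells carried Npy in all 3 libraries, at 72 CPM (31.1 to 142) in control 1, 320 CPM (233 to 428) in control 2 and 111 CPM (80.6 to 150) in the mutant. These came from 8, 45 and 43 UMIs in 1 of 10, 13 of 28 and 18 of 125 cells. The highest cell had 9 UMIs. The interval of the mutant overlapped that of control 1 and not that of control 2, and the log2 ratio, -0.45, was smaller than the gap of 2.15. In control 2 and the mutant, glial levels were above the mesenchymal levels of the same library, without overlap of the intervals. The intervals of control 1 lay apart too, but all 8 glial UMIs were in 1 cell, so counting error does not settle that library.

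Neuronal Npy was found in the controls and was nearly missing from the mutant. The 18 neurons of control 1 held 56 UMIs, 378 CPM (285 to 490), the 13 of control 2 held 22 UMIs, 181 CPM (113 to 274), and the 303 of the mutant held 3 UMIs in 1 cell, 1.20 CPM (0.248 to 3.51). The log2 ratio was -7.76 beside a gap of -1.06. The size rule was not run over all genes in neuronal cells, so there is no share of genes to set this ratio beside. In each control a single cell decided much of the level: 38 of the 56 UMIs of control 1 and 21 of the 22 UMIs of control 2 lay in 1 cell. The number of cells was thus 7 of 18 and 2 of 13 in the controls against 1 of 303, and with 1 more marker required for the class, control 2 kept 1 Npy UMI, 8.18 CPM, and the mutant none.

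The neurons of the libraries differed in some genes that the gate did not use and shared others. The autonomic genes Phox2a (634, 263 and 165 CPM) and Hand2 (169, 271 and 127 CPM) were found in every library. Phox2a was in 12 of 18, 8 of 13 and 171 of 303 neuronal cells. In control 1 the noradrenergic genes Dbh (256 CPM, 11 of 18 cells), Gata3 (270 CPM) and Th (101 CPM) were high, as in sympathetic neurons, and Cartpt, the precursor of the CART peptide, stood at 978 CPM. All 7 Npy cells of control 1 carried Dbh, Phox2a, Isl1 and Hand2. In control 2 no UMI of Dbh, Gata3, Th or Isl1 was found, and Vip, a peptide of parasympathetic and enteric neurons, stood at 280 CPM. In the mutant Dbh was at 0.802 CPM, Gata3 at 0.401 CPM, Th at 37.7 CPM in 47 cells and Vip at 231 CPM. Pou4f1, a gene of sensory neurons, stood at 168 CPM in 76 of the 303 mutant cells, with 0 UMIs in both controls. The part of this makeup in the Npy and Gal levels of neurons was not tested, and genotype and makeup cannot be told apart here.

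Gal had the largest counts per cell of the 5 genes and, after Sst, the widest gap between the controls. In epithelial cells it was found with 75, 2238 and 2443 UMIs, or 29.9 CPM (23.5 to 37.5) in control 1, 1099.9 CPM (1055 to 1146) in control 2 and 1125 CPM (1081 to 1171) in the mutant. The mutant had 1.02 times the CPM of control 2 (0.966 to 1.08) and 37.6 times that of control 1 (29.9 to 48.0). The log2 ratio was 2.63, below the gap of 5.2, and the interval of the mutant overlapped that of control 2 and not that of control 1. Cells with a UMI made up 7.51% (4.06 to 12.5), 23.8% (18.2 to 30.2) and 21.3% (16.8 to 26.3), and 3.64%, 17.4% and 16.0% after thinning.

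Many epithelial cells with Gal were rich in it. Of 50 such cells in control 2 and 64 in the mutant, 21 and 29 had at least 20 UMIs, and the highest had 176 and 191. In control 1 the highest of 13 had 18 UMIs, and its 5 richest cells held 88.0% of the UMIs, so that 9 UMIs, 3.71 CPM, were left without them. Control 2 and the mutant kept 726 and 764 CPM without their 5 richest cells. The low value of control 1 depended on the class as well: mixed barcodes held 63.8% of all its Gal UMIs, with up to 136 in 1 barcode, against 33.0% in control 2 and 38.3% in the mutant. With mixed barcodes counted under their leading class, epithelial Gal was 79.1, 757 and 798 CPM, and with 1 more marker per class 83.8, 1122 and 1095 CPM.

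**Figure D3:**
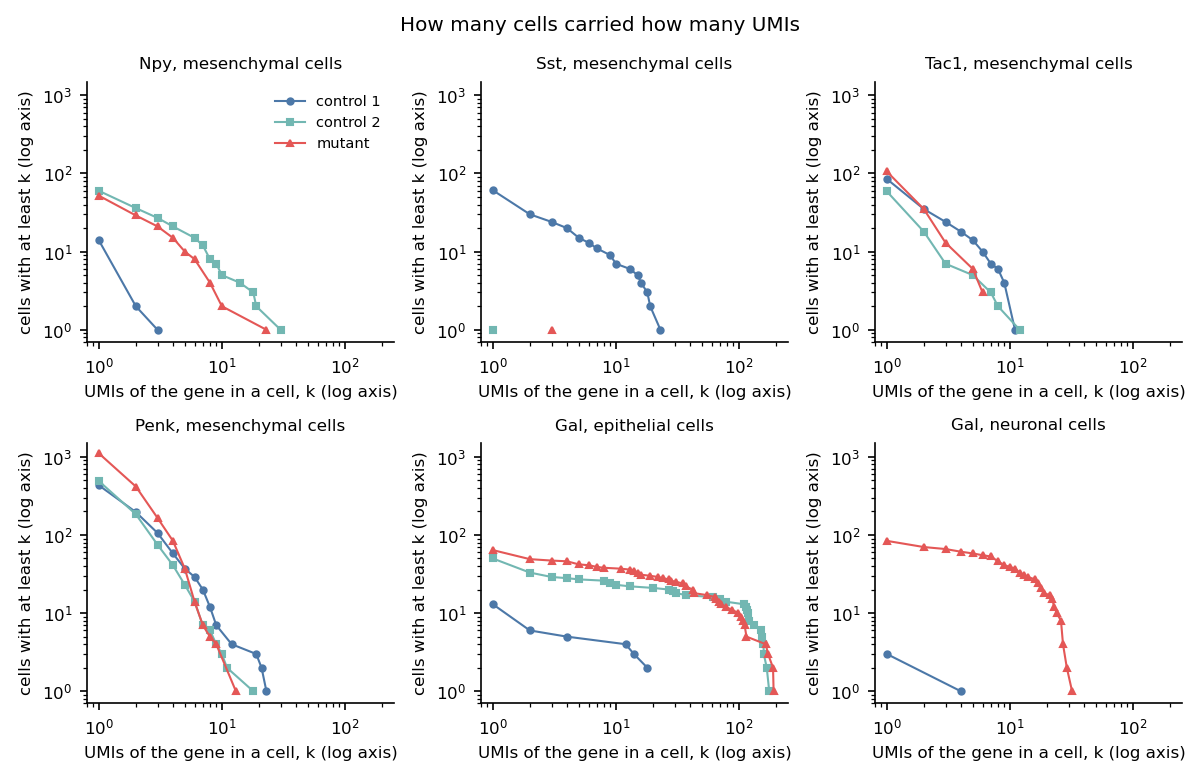
Number of cells (log axis) that held at least k UMIs of a gene, against k (log axis), in 6 pairs of gene and class with 1 line per library. Penk lines fall steeply, with 1108 mutant mesenchymal cells at 1 or more UMIs and a highest cell of 13, whereas the epithelial Gal lines of control 2 and the mutant run out to 176 and 191 UMIs.

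Gal was highest in the periderm-type cells of control 2 and the mutant. Cells with at least 2 of 5 periderm markers (periderm is the flat outer layer of the embryonic oral epithelium) stood at 29.8, 1693 and 2065 CPM, cells of the nasal or ciliated type at 1.14, 14.4 and 49.3 CPM. Basal-type cells, which overlapped with the former, stood at 32.8, 1209 and 834 CPM. In a split by Krt6a, a keratin of periderm, made after the values were seen, cells with Krt6a stood at 90.5, 3682 and 3406 CPM and those without at 13.2, 58.6 and 434 CPM. Among the cells without Krt6a the intervals of control 2 (46.8 to 72.5) and the mutant (403 to 467) lay apart. Of the 85 UMIs of control 2, 70 lay in 1 cell, so its level without that cell was lower still. Before thinning, the shares of cells with Gal overlapped, at 9.20% (5.24 to 14.7) and 12.1% (8.24 to 16.9). After thinning, they lay narrowly apart, at 2.5% (4 of 160 cells) in control 2 and 9.91% (23 of 232) in the mutant. The interval of control 2 reached up to 6.28%, and that of the mutant down to 6.39%. Among the cells with Krt6a the levels overlapped (3528 to 3841 and 3247 to 3571).

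The genes most raised in Gal-carrying epithelial cells of control 2 and the mutant were Fgf21, Ccl21a, Cdkn2b, Slco2a1 and C1qtnf3. Fgf21 encodes a hormone-like fibroblast growth factor, Ccl21a a chemokine, Cdkn2b an inhibitor of the cell cycle and Slco2a1 a prostaglandin transporter. Their smallest log2 ratios were 4.73, 3.82, 3.77, 3.20 and 3.19. Fgf21 stood at 142 CPM in Gal cells of control 2 against 1.52 CPM in the others, and at 222 against 8.38 CPM in the mutant. Ccl21a stood at 150 against 10.6 CPM and at 160 against 8.97 CPM. Control 1 had 13 Gal cells and was not used. Median depth was 10398 UMIs with and 6744 without Gal in control 2, and 6596 and 5763 UMIs in the mutant.

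In mesenchymal cells Gal counts were mostly single UMIs. They came to 31, 161 and 195 UMIs, or 2.87, 11.6 and 6.58 CPM, and all 31 cells of control 1 and 145 of 152 cells of control 2 held 1 UMI. In the mutant, 5 of 90 cells held at least 5 and the 5 richest had 48.7% of the UMIs. Myeloid cells, which should lack galanin, had a UMI in 2.38%, 1.90% and 1.32% of cells at medians of 9126, 5760 and 5160 UMIs. The mesenchymal shares were 2.56%, 6.45% and 2.05% at medians of 7796, 4979 and 5046 UMIs. All 3 lay within the myeloid intervals, which reached up to 12.6%, 6.71% and 4.70%, so over the class mesenchymal Gal was not separated from free RNA at this depth. Endothelial cells (4.32, 3.77 and 2.88 CPM) overlapped the myeloid level (2.42, 2.89 and 2.28 CPM).

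Gal was high in the neurons of the mutant. They held 918 UMIs, 368 CPM (345 to 393), in 84 of 303 cells, 27.7% (22.8 to 33.1), or 19.6% after thinning. The 18 neurons of control 1 held 6 UMIs, 40.5 CPM (14.9 to 88.1), in 3 cells. The 13 of control 2 held none, where 3 UMIs would have been 24.7 CPM. With that count set to 3 UMIs, the log2 ratio was 3.54 beside a gap of -0.71, and the mutant had 9.10 times the CPM of control 1 (4.16 to 24.9). As for neuronal Npy, no share over all genes in neuronal cells was taken to set this ratio beside.

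Gal-positive neurons of the mutant differed from the others in several neuron genes. Pou4f1 was found in 64 of the 84 cells with Gal and in 12 of the 219 without, at 363 and 57.1 CPM. Isl1 stood at 623 against 80.3 CPM and Th at 94.4 against 5.65 CPM. Genes of pain-sensing neurons, added after values were seen, ran the same way, with Runx1 at 148 against 5.65 CPM and Scn10a in 26 Gal cells and 1 other. The autonomic genes Phox2a and Hand2 ran the other way, at 38.9 against 236 CPM and at 44.4 against 174 CPM. The Gal cells were deeper, with a median of 9709.5 UMIs against 5712.

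Among the other peptides in these neurons, Tac1 was found in 16 of the 84 Gal cells and 12 of the 219 others, at 41.1 and 10.0 CPM. Adcyap1, the precursor of PACAP, stood at 71.1 against 12.6 CPM, and Vip at 97.7 against 307 CPM. Cartpt was found in 19 Gal cells and in none of the others. The galanin receptor gene Galr1 was on the other side, in 5 of the 84 Gal cells and 62 of the 219 without Gal, at 7.77 and 56.5 CPM, and the receptor gene Npy1r was with Gal, at 62.2 against 14.4 CPM.

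**Figure D4:**
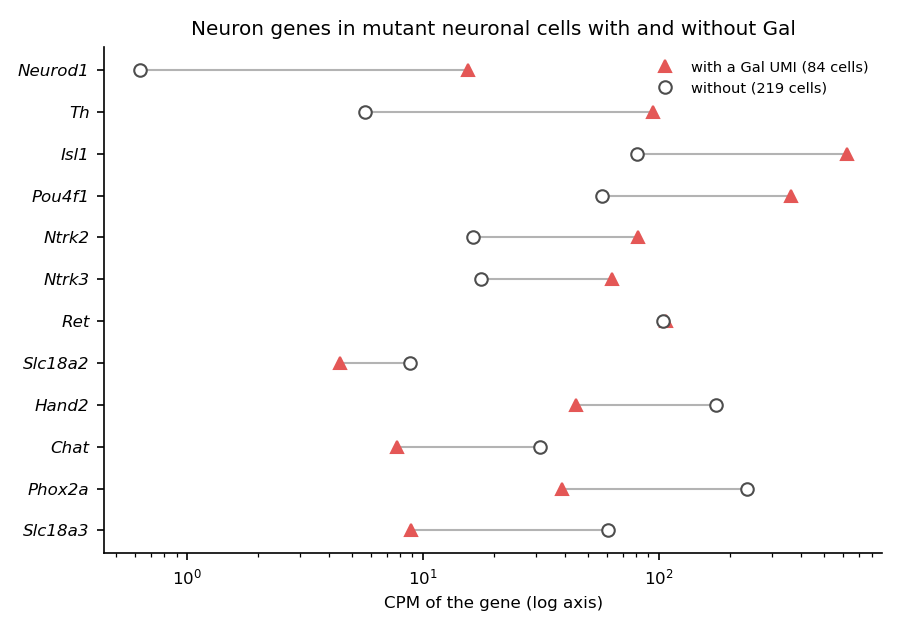
CPM (log axis) of 12 autonomic and sensory neuron genes in mutant neuronal cells with a Gal UMI (84 cells, filled triangles) and without (219 cells, open circles). Isl1 lay at 623 against 80.3 CPM, and Phox2a, Hand2 and Slc18a3 were among the genes on the other side.

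Penk was the broad member of the set and the steadiest between libraries. Mesenchymal cells held 936, 856 and 1844 UMIs, or 86.8 CPM (81.3 to 92.5) in control 1, 61.8 CPM (57.7 to 66.0) in control 2 and 62.2 CPM (59.4 to 65.1) in the mutant. The mutant and control 2 differed by a factor of 1.01 (0.928 to 1.09). The log2 ratio was -0.24 beside a gap of -0.49. Penk was found in 35.7%, 20.8% and 25.2% of mesenchymal cells, and in 13.5%, 10.2% and 11.2% after thinning to a common depth.

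No cell dominated the Penk counts. The 5 richest mesenchymal cells held 8.97%, 6.54% and 2.60% of the UMIs, and 236 of 432, 306 of 490 and 692 of 1108 cells with Penk held 1. Perimysial cells stood at 104, 76.7 and 64.7 CPM, midline cells at 88.9, 65.1 and 67.7 CPM and osteogenic cells at 59.5, 59.3 and 38.2 CPM. The genes most raised in Penk cells of all 3 libraries were Zbtb20, Col12a1, Nr4a1, Trib2 and Igf1r, all with small ratios, from 0.42 to 0.34 on the log2 scale at their lowest. Col12a1 encodes a collagen of dense connective tissue and stood at 179, 230 and 361 CPM in Penk cells against 132, 176 and 260 CPM.

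Over classes, Penk was high in mesenchymal, mural and cartilage-type cells. Mural cells, the pericytes and smooth muscle of vessels, stood at 149 CPM (87.0 to 239), 176 CPM (70.9 to 363) and 61.7 CPM (29.6 to 113), from 17, 7 and 10 UMIs, and their intervals overlapped those of the mesenchyme in every library. Chondrocyte-marked cells stood at 852 CPM (368 to 1679), 35.9 CPM (0.909 to 200.1) and 52.3 CPM (36.0 to 73.5), from 8 UMIs in 1 of 2 cells, 1 UMI in 6 cells and 33 UMIs in 132 cells, so the control values rest on single cells. Epithelial cells were at 12.7, 22.1 and 13.8 CPM. Myeloid cells were at 17.0, 4.34 and 4.55 CPM and neuronal cells at 20.2, 8.22 and 6.42 CPM, and these neighbours did not separate beyond their intervals. Penk in neuronal, glial and endothelial cells was thus not separated from the myeloid level.

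Receptors for the 5 peptides were scarce in the same tissue. Of 19 receptor genes, none reached 5 CPM in mesenchymal or epithelial cells of any library, and 7 and 13 of them were without a UMI in these classes in all 3 libraries. Beside the genes named by rule, 3 were picked after their values were seen. Npy1r was at 1.95, 1.73 and 2.16 CPM in mesenchymal cells. In epithelial cells Sstr2 stood at 0.399, 3.44 and 1.38 CPM, and the κ-opioid receptor gene Oprk1 at 0.797, 2.46 and 2.76 CPM. In neurons 3 receptor genes reached 5 CPM in some library. Galr1 stood at 0, 49.3 and 38.9 CPM, Npy1r at 13.5, 0 and 31.7 CPM and Sstr1 at 6.74, 0 and 2.0 CPM. The control values came from 6 UMIs of Galr1 in control 2, and from 2 of Npy1r and 1 of Sstr1 in control 1. Glial Sstr1 stood at 0, 14.2 and 5.18 CPM, from 2 UMIs each in control 2 and the mutant, and in mural cells Npy1r, Galr2 and Oprk1 passed 5 CPM with 1 UMI each.

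The genes that make and store neuropeptides divided between classes. Of 14, 9 reached 5 CPM in the neuronal cells of every library, 5 in mesenchymal cells and 4 in epithelial cells. The threshold was not alike, because 1 UMI was 6.74 CPM in the neurons of control 1 and 8.22 CPM in those of control 2. Chga passed in the neurons of control 2 on 1 UMI. In the mesenchymal cells of control 1, 62 UMIs of Qpct came to 5.75 CPM. The mesenchymal genes were Pam (245, 553 and 184 CPM), Cpe (74.1, 43.3 and 52.8 CPM), Furin, Pcsk5 and Qpct, and the epithelial ones were the first 4 of these, with Furin at 58.6, 106 and 76.0 CPM. The granule genes Chga, Chgb, Scg2, Scg3 and Scg5 were under 5 CPM in both classes, and Pcsk1 was under 5 CPM in every class of neuronal, mesenchymal and epithelial cells. In neurons Pcsk1n, a granule inhibitor of Pcsk1, stood at 620, 493 and 1019.7 CPM.

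Among 6 surface enzymes that cleave peptides, Mme (neprilysin, which degrades enkephalins and substance P) stood at 65.8, 59.8 and 81.3 CPM in mesenchymal cells and at 18.7, 19.2 and 16.6 CPM in epithelial cells. Ece1 stood at 16.1, 19.4 and 15.7 CPM in the mesenchyme and at 109, 87.5 and 57.6 CPM in the epithelium. In both classes 2 of the 6 genes were at 5 CPM or more in every library.

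Of 51 other neuropeptide genes, 4 reached 5 CPM in the mesenchymal cells of every library and 12 had no UMI there. Edn3 stood at 9.92, 11 and 8.84 CPM, Pomc at 5.19, 7.87 and 8.13 CPM, Pthlh, a hormone-like peptide of bone and tooth development, at 15.9, 5.70 and 8.40 CPM, and Apln at 7.23, 5.56 and 5.57 CPM. In epithelial cells 1 of the 51 reached 5 CPM in every library, Pthlh at 66.6, 184 and 135 CPM. Epithelial cells with Pthlh stood at 53.6, 2787 and 2573 CPM of Gal against 15.0, 9.71 and 177 CPM in those without, a split made after the values were seen. Nppc stood at 2.79, 13.3 and 35 CPM.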

How the data were processed

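Single-cell RNA of 2 control and 1 mutant soft palate libraries (10x 3′ v2) was analysed. The values in the deposited matrices are UMI counts, 1 for each gene in each barcode, made by the authors with Cell Ranger 4.0.0 per the file headers and the study's methods (3.1.0 and mm10 per the submitters' processing notes), without normalization or pooling. The annotation is not given in the sources used here. The authors later combined the controls, and those steps are not in the files.

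Barcodes needed 500 detected genes, with mitochondrial UMIs limited to 10%. Scrublet (scanpy 1.11.5) set its own threshold so that 1, 0 and 0 barcodes were marked, so the barcodes with the highest scores (48, 124 and 564) were removed instead, assuming 0.8% doublets for each 1000 barcodes. A cell took the class with the largest share of its markers detected, at least 2, if the next class reached at most 0.5 of that share, and was otherwise mixed. Cells of no class with 2 perimysial markers joined the mesenchyme. The markers were listed first, and this scoring was set after the cells had been seen. Levels were computed in Python 3.11.15 with scipy 1.17.1 as sums of UMIs per class, and a count under 3 was set to 3 before a logarithm was taken. TMM factors came from edgeR 4.0.16. For shares, each cell was thinned to 2000 UMIs and shallower cells were left out. No test of genotype was run, as 1 library stands for the mutant. Summed over all kept cells, the UMIs of the controls gave a chi-square of 52.9 for each degree of freedom (15584 genes). It takes UMIs as independent and includes differences in cell makeup, so it does not measure the gap between the controls within a class.

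The members and lists were chosen with earlier results of these data known. Beside the 5 members, the 5 genes were named for each whose smallest log2 ratio over libraries with at least 20 such cells, cells with over cells without a UMI, was largest, among genes with at least 50 CPM in cells with a UMI. List genes were named from 5 CPM, and some of the neuron genes are not reported here. Cells were not treated as replicates, and precision follows from the UMIs of each class.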

Additional observations from a re-analysis of the deposited data

How the results depend on the processing

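No paired analysis was possible, because the labels link neither control to the single mutant library, and no test of genotype was run. The ratios of Npy, Sst, Tac1 and Penk in mesenchymal cells and of Gal in epithelial and neuronal cells moved by less than the spread of the controls under each alternative that gave a value. The alternatives were doublets kept, 200 genes without a mitochondrial limit, 1 more marker, libraries thinned to the shallowest and, except for neurons, TMM factors, a mean over cells and the 5 richest cells left out. The others were chosen after seeing the data: mixed barcodes counted under their leading class, and no cells known by perimysial markers alone, and the neuronal results were added then too. That spread was wide, so signs still changed. Leaving out each control in turn, the log2 ratio ran from -1.72 to 1.78 for mesenchymal Npy, from 0.03 to 5.23 for epithelial Gal, from -1.74 to -0.42 for Tac1, from -0.48 to 0.01 for Penk, from -8.29 to -7.23 for neuronal Npy and from 3.19 to 3.90 for neuronal Gal. For Sst it was -7.80 without control 2, and without control 1 none was formed because both sides were at or under 3 UMIs. Neuronal Npy moved to -6.58 with 1 more marker, where control 2 kept 1 UMI. Without the filter on CPM, 1762 genes passed the size rule in mesenchymal cells and 1058 in epithelial cells, 10.3% and 7.72% of the genes tested, against 236 and 581. Of these genes, 83.7% and 82.7% were lower in the mutant. In mesenchymal cells 3 UMIs were 0.278 CPM in control 1, 0.216 CPM in control 2 and 0.101 CPM in the mutant. Genes set to that floor therefore leaned lower in the mutant by construction. How many passed in this way was not tested. TMM factors raised every log2 ratio by 0.14 in both classes. The values rest on 1 mutant library and on 18 and 13 control neurons, in which 3 UMIs were 20.2 and 24.7 CPM.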
